A study of Mus musculus with 24 samples.

Results

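The Mir290 to Mir295 cluster is a group of microRNA hairpin genes on mouse chromosome 7 that is known as a mark of embryonic stem cells. Its members were taken by name: every row of the deposited table whose Ensembl identifier maps, in the GENCODE mouse annotation (release M21, genome build GRCm38), to Mir290a, Mir290b, Mir291a, Mir291b, Mir292, Mir292b, Mir293, Mir294 or Mir295. All 9 were found among the 55335 genes of the table, and 7 of the 9 had at least 1 count. The study sequenced small RNA from mouse embryonic stem cells (mESC) and from neural progenitor cells (NPC) made from them, in lines that differ at Htt, the gene of huntingtin, whose expanded CAG repeat causes Huntington's disease. There were 24 libraries in 12 groups of 2.

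Per the labels, each cell type had wild-type cells (WT), an Htt knockout (KO) and 4 heterozygous knock-in lines of an Hdh CAG series, whose names give the repeat number: Q20, Q50, Q92 and Q111. For Q92 the labels differ, with 92 repeats in the titles but 89 where culture is described. Each repeat length is 1 line, so length and line cannot be told apart. All mESC were grown with leukemia inhibitory factor on irradiated CF-1 mouse embryonic fibroblasts, and all NPC were kept in medium with FGF and EGF after 7 days of neural induction. The design text calls the libraries of a group biological samples, but nothing in the sources used here says that they came from separate cultures, so p-values measure the spread between these libraries, which may be technical.

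Counts per library totalled 642384 to 2360434 in mESC and 342022 to 682113 in NPC. The 2 libraries of each group differed by more than sampling noise (chi-square over its degrees of freedom between 2.02, for Q20 as mESC, and 88.3, for Q50 as mESC), so each was kept as its own replicate. Htt, the targeted gene, had 2 and 3 counts in the KO mESC, 1 and 1 in the KO NPC and 0 to 9 in the other 10 libraries of each cell type. That depth neither separates the KO libraries from the rest nor checks their label. Of 13 pluripotency genes looked up, all had counts in mESC and 10 were at 0 in the NPC of all lines but Q20. Their summed level was 40.9 to 98.3 CPM (counts over the library total scaled by the trimmed mean of M-values, TMM, times 1e+06) in mESC and 4.57 to 14.1 in those NPC. Of 20 neural markers in the table, 17 had counts and 10 had enough to be tested, mostly through NPC; these 10 were called higher in NPC by the test described below, as were 30.4% of all genes tested. Of 16 fibroblast markers, 10 were at 0 in every mESC library, Col1a1, Col1a2 and Col3a1 among them, and 295 of the 331 counts of the list in mESC were Fn1. Mir143, Mir145a and Col5a1 had 14, 12 and 8 counts over mESC, with at most 4 in a library. Their means were 1.06, 0.904 and 0.496 CPM in mESC and 0.401, 0.299 and 0 in the NPC of all lines but Q20.

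A microRNA is cut from a hairpin in a longer transcript, first by Drosha in the nucleus and then by Dicer in the cytoplasm. Either arm of the hairpin can give the mature molecule, named 5p or 3p. The mature strand is loaded into an Argonaute protein and finds messenger RNAs mainly through its seed, the bases numbered 2 to 8 from its 5′ end, so microRNAs with the same seed share many targets. In mouse embryonic stem cells the Mir290 to Mir295 hairpins come from 1 transcript, are among the most abundant microRNAs, and are known to shorten the G1 phase by holding down inhibitors such as Cdkn1a and to be shut off when the cells differentiate.

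The sequences show which members share a seed and that Mir293, the member with the most counts below, has a 3p seed of its own. The mature sequences below are RefSeq's, on GRCm38.p6, which listed 17 mature microRNAs over the 9 members and hairpins for 8 of them. Each is written from its 5′ end, with the seed in capitals. On the 3p arm, 5 of the 8 listed molecules share the 6 letters AAGUGC in their seed, and miR-293-3p does not. The 3p molecule of Mir302b, from a separate stem-cell cluster on chromosome 3, is added because it has the seed of miR-291a-3p, miR-294-3p and miR-295-3p. Mir292 is shown by its 5p arm, miR-292a-5p. Neither miR-292a-3p nor the hairpin of Mir291a had an entry in the listing used, so Mir292 enters no count of 3p seeds. The hairpin of Mir292 does hold the letters AAGUGC after its 5p arm.
miR-290a-3p: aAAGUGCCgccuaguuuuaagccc
miR-291a-3p: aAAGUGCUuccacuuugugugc
miR-291b-3p: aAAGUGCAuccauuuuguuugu
miR-294-3p: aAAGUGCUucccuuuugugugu
miR-295-3p: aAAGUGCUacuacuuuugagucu
miR-293-3p: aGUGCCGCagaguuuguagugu
miR-302b-3p: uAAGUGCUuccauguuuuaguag

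On the 5p arm, miR-290a-5p, miR-292a-5p and miR-293-5p share the seed CUCAAAC, and the 5p arms of Mir294 and Mir295 differ from it in the last seed base alone.
miR-290a-5p: aCUCAAACuaugggggcacuuu
miR-292a-5p: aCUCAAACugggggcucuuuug
miR-293-5p: aCUCAAACugugugacauuuug
miR-294-5p: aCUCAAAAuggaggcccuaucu
miR-295-5p: aCUCAAAUguggggcacacuuc

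Among the 1679 mature mouse microRNAs of the RefSeq table, 8 (0.476%) have a seed that begins with AAGUGC, and 5 of the 8 belong to the cluster. That table is not complete, so these are counts of listed molecules. It lacks miR-292a-3p, and it lists Mir302a, outside the cluster, by its 5p arm alone. The full seed AAGUGCU occurs in 5 of the 1679 (0.298%): 3 from the cluster, miR-302b-3p and miR-302d-3p. A seed that begins with CUCAAA occurs in 6, all from the cluster. The counts are per hairpin gene, so they do not tell the 5p from the 3p arm. The hairpin of Mir293, the member with the most counts, is given in full because the seed of its 3p arm, GUGCCGC, occurs in no other molecule of that table. Its mature arms, 5p before 3p, are in capitals.
Mir293: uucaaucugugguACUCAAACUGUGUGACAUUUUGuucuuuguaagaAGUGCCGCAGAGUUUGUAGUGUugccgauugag

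The cluster spans 2216 bases. On the plus strand, in order, lie Mir290a (chr7:3218626-3218708), Mir291a (chr7:3218919-3219000), Mir292 (chr7:3219189-3219270), Mir291b (chr7:3219482-3219560), Mir293 (chr7:3220343-3220422), Mir294 (chr7:3220641-3220724) and Mir295 (chr7:3220773-3220841). Mir290b (chr7:3218638-3218695) and Mir292b (chr7:3219198-3219259) lie on the minus strand, opposite Mir290a and Mir292. All members but Mir290a and Mir290b overlap an exon of Nlrp12, a gene of the innate immune system annotated on the minus strand. Neither Mir290b, Mir292b nor Nlrp12 had a count in any of the 24 libraries, and all 32581 counts of the cluster were assigned to the 7 plus-strand hairpins. Whether the counting used strand is not given in the sources used here. Mir291a and Mir291b share 1 stretch of 20 bases with each other, and the other 5 hairpins with counts share none with another annotated transcript on the same strand.

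**Figure D1:**
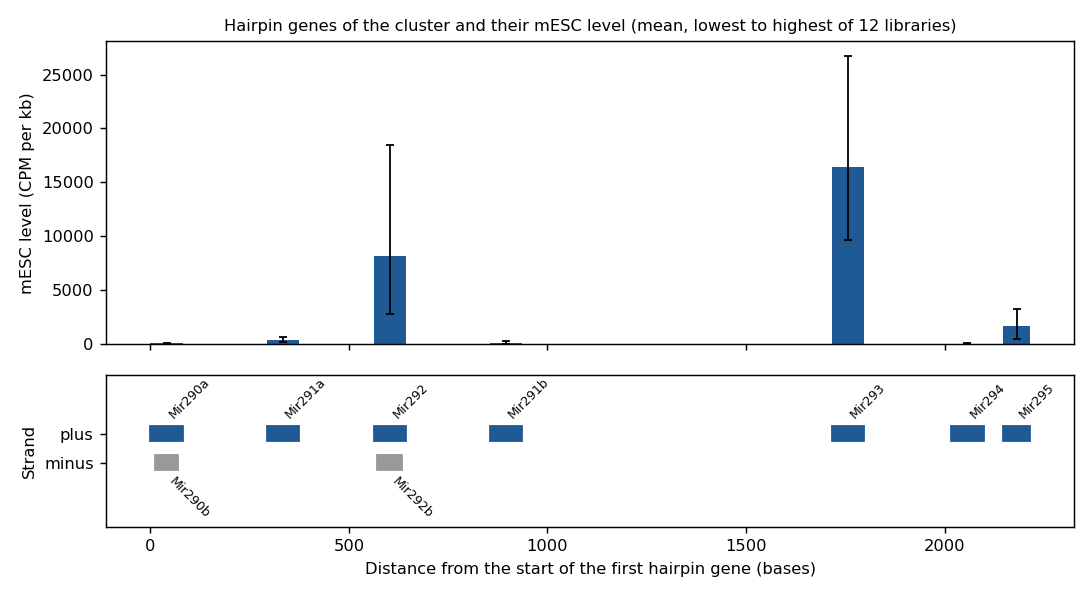
The lower panel places the 9 hairpin genes by their distance in bases from the start of Mir290a, with strand on the vertical axis, and the bars above give the mean level of each in mESC in CPM per kilobase, with whiskers from the lowest to the highest of 12 libraries. Mir293 and Mir292 stand far above the rest, with means of 16411 and 8138 CPM per kilobase, and the grey minus-strand genes had no counts.

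In mESC the cluster gave 32437 counts over 12 libraries, and its members differed widely in level per length. Mir293 was the highest and Mir292 the next. On the scale of CPM per kilobase of hairpin, the mESC means were 16411 for Mir293, 8138 for Mir292, 1635 for Mir295, 391 for Mir291a, 124 for Mir291b, 61.9 for Mir290a and 50.9 for Mir294. Neighbours in the genome were not neighbours in level: Mir294 lies between Mir293 and Mir295, both far above it.

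Mir293 had 1438 and 2139 CPM in the WT mESC, 1147 and 1827 in KO, 1181 and 1383 in Q20, 1076 and 1762 in Q92, 775 and 1195 in Q50, and 782 and 1050 in Q111 (all 12: 1313 ± 418, SD). No genotype lay wholly apart from all the others. Mir292 had 421 and 1211 CPM in WT, 309 and 1158 in KO, 475 and 546 in Q20, 273 and 1081 in Q92, 276 and 1512 in Q50, and 227 and 518 in Q111 (667 ± 446, SD, n = 12). In every line but Q20 replicate 2 was at least 2.29 times replicate 1, and the ranges of the lines overlapped. Mir295 ranged from 35.3 to 223 CPM with a median of 75.8, Mir291a from 15.2 to 54.3 with a median of 28.8, and Mir291b from 2.87 to 21.8 with a median of 8.73. All 3 ranges lay below those of Mir293 and Mir292. Mir290a (1.41 to 11.8 CPM, median 3.94) and Mir294 (1.41 to 9.05 CPM, median 3.36) rested on 1 to 26 and 1 to 20 counts per library, and their ranges overlapped almost wholly.

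The 2 abundant hairpins took 89.5% to 94.8% of the cluster's counts in every mESC library. Mir293 alone held 64.0% ± 10.2 (SD, n = 12) and Mir292 28.6% ± 9.09. The other 5 hairpins with counts, Mir290a, Mir291a, Mir291b, Mir294 and Mir295, held 7.41% ± 1.68 together, with a range of 5.24% to 10.5%. Mir295 made up most of that, with 4.88% of the cluster's counts.

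**Figure D2:**
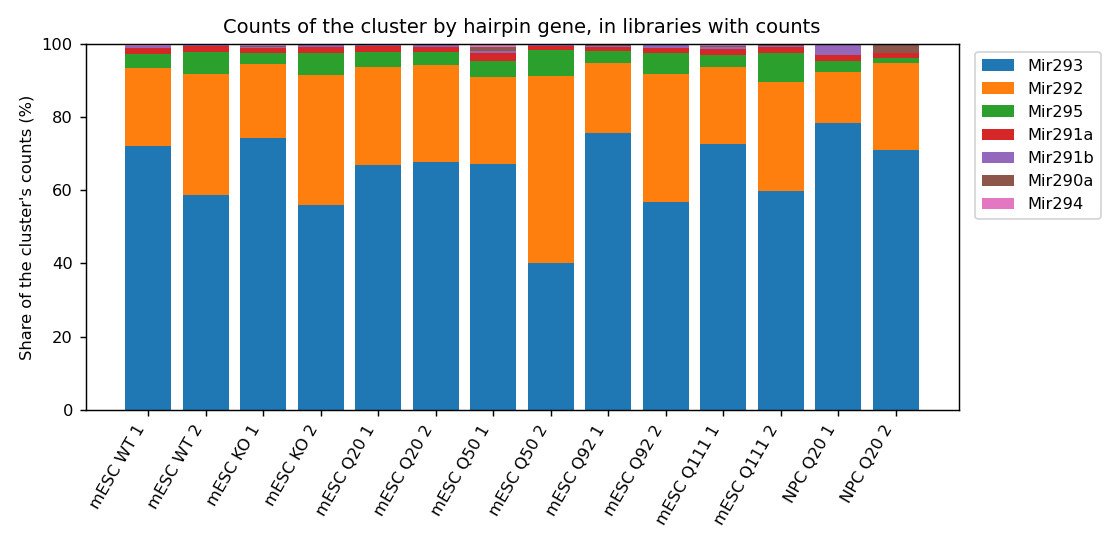
Each bar is 1 library with cluster counts, and its segments give the share of the cluster's counts in percent held by each hairpin gene. Mir293 and Mir292 fill 89.5% to 94.8% of every mESC bar, and Mir292 takes the larger part of the 2 in mESC Q50 replicate 2 alone.

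The share of Mir292 followed the replicate number of the labels. In replicate 1 of the 5 genotypes other than Q20, the ratio of Mir292 to Mir293 counts was 0.254 to 0.356, and in replicate 2 it was 0.493 to 1.27, with no overlap. In Q20 it was 0.403 and 0.394. Between replicates of the same line, CPM was higher in replicate 2 in 5 of these 5 genotypes for Mir292 (2.29 to 5.48 times), Mir295 (2.89 to 4.42 times), Mir293 (1.34 to 1.64 times), Mir291a and Mir291b. Mir294 went the other way in 5 of 5, and Mir290a was higher in 3 and lower in 2. Depth moved with the number too: the replicate 1 libraries of these lines had 2134729 to 2360434 counts, the replicate 2 libraries 642384 to 1149003, and the Q20 libraries 1795879 and 1901042. The labels do not say what the number marks, and its part in these ratios was not tested.

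Summed over the members, the cluster made up 0.197% ± 0.0968 (SD, n = 12) of all counts in mESC, with a lowest library of 0.0813%, a median of 0.160% and a highest of 0.365%. Of the counts on genes with a microRNA symbol it made up 61.95% ± 9.48, from 45.5% in Q20 replicate 1 to 76.2% in WT replicate 2. MicroRNA genes held 0.235% of all counts of the series.

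By line, the summed cluster stood at 2821 ± 1173 CPM in WT, 2402 ± 1219 in KO, 2260 ± 1182 in Q92, 2063 ± 1284 in Q50, 1906 ± 196 in Q20 and 1415 ± 479 in Q111 (SD, n = 2 each). Each neighbouring pair in that order overlapped except the last: both Q111 libraries lay below both Q20 libraries. They also lay below both WT libraries. This holds for CPM. As a share of all counts, Q111 (0.0813% and 0.199%) overlapped both Q20 (0.137% and 0.163%) and WT (0.157% and 0.365%). As a share of microRNA counts, Q111 (49.8% and 59.8%) lay above both Q20 libraries (45.5% and 48.9%) and below both WT libraries (67.1% and 76.2%). The per-library values were 1992 and 3650 CPM in WT, 1540 and 3264 in KO, 1424 and 3095 in Q92, 1155 and 2970 in Q50, 1767 and 2045 in Q20, and 1076 and 1753 in Q111. Within either replicate number, leaving out Q20, the order of the 5 other lines by CPM was the same, from WT through KO, Q92 and Q50 to Q111. As a share of all counts or of microRNA counts, WT was again the highest of these 5 lines and Q111 the lowest under both numbers. The order of KO, Q50 and Q92 differed.

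**Figure D3:**
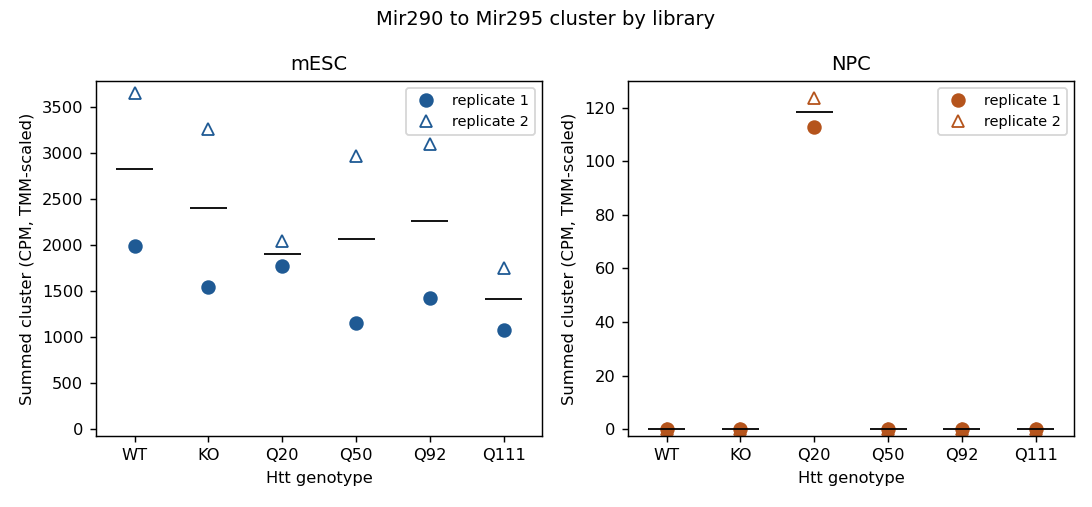
Points give the summed cluster in CPM for each library by Htt genotype, circles for replicate 1 and triangles for replicate 2, with a line at the mean of the 2; the left panel is mESC and the right panel NPC, on different vertical scales. In mESC the libraries lie between 1076 and 3650 CPM, and in NPC every line but Q20 is at 0. Q111 is wholly below WT and Q20 in CPM, though not as a share of all counts.

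None of the members passed the test between an mESC line and WT. The test was edgeR's quasi-likelihood F-test on the 12 mESC libraries with Benjamini-Hochberg adjustment over 1766 genes, called at an adjusted p under 0.05, and 7 of the 9 members had enough counts to be tested. KO, Q50, Q92 and Q111 each had 0 members called against a background of 0% of all genes tested, and Q20 had 0 of 7 against 0.0566%. At an unadjusted p under 0.05 there were 18 genes for KO, 88 for Q20, 47 for Q50, 47 for Q92 and 66 for Q111. The Wald test of DESeq2 called 0, 9, 0, 0 and 1 genes in the same order, none of them a member.

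Mir293 had the lowest unadjusted p of the members, in Q111. Its levels of 782 and 1050 CPM lay below the 1438 and 2139 CPM of WT, with no overlap, and the log2 difference was -1.09 ± 0.43 (SE; 95% interval -2.002 to -0.18; edgeR adjusted p = 0.996). It did not pass the adjusted threshold. In Q50 the log2 difference of Mir293 was -0.83 (95% interval -1.74 to 0.08), in Q20 -0.41 (-1.31 to 0.49), in Q92 -0.30 (-1.21 to 0.60) and in KO -0.21 (-1.11 to 0.69). For Mir292 the Q111 difference was -1.27 (-2.94 to 0.41). These intervals leave out that, in the 5 lines other than Q20, libraries with the same replicate number deviate together. With the number as a block and Q20 left out, a fit chosen after seeing the data, the Q111 difference was -1.10 for Mir293 (-1.85 to -0.34) and -1.17 for Mir292 (-1.98 to -0.37), both intervals below 0. Neither passed the threshold over all genes (edgeR adjusted p = 0.225 for both). Of the 1567 genes in that fit, 5 were called in Q111, 3 in Q92, 2 in Q50 and 0 in KO, no member among them.

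The estimates of the 7 tested members were all negative in Q111 (log2 -1.27 to -0.32) and in Q20 (-1.08 to -0.41). In another fit, microRNA genes alone were scaled to their own total, of which the cluster held 45.5% to 76.2% in mESC. A change of the cluster also moves that total and is partly cancelled. The Q111 estimates then lay between -0.49 and 0.40, 6 of 7 negative, with Mir293 at -0.37 and the median gene of that fit at 0.59. Without either WT library, 6 of 7 were negative. KO estimates lay between -0.28 and 0.12, Q50 between -0.83 and 0.48, and Q92 between -0.58 and 0.32. The members share a transcript and the 5 comparisons share the WT libraries, so these are not separate observations.

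Repeat length showed no called member either. In edgeR, 1487 genes of the 8 knock-in mESC libraries were fitted with a linear term in repeat length, given per 10 repeats, of which 0% were called and 48 had an unadjusted p under 0.05. The slopes of the 6 members tested ran from -0.06 to 0.02 log2 per 10 repeats. For Mir293 the slope was -0.03 (95% interval -0.14 to 0.08; edgeR adjusted p = 1.00).

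In NPC the cluster had counts in the Q20 line alone. In the NPC of WT, KO, Q50, Q92 and Q111, all 9 members had 0 counts in all 10 libraries, 0 of 4473472 counts in total, which allows a share of up to 6.71e-05% (3 counts of the total, counting error only). The same lines as mESC had 1076 to 3650 CPM. In bulk samples such as these, fewer cells of a type and less RNA per cell cannot be told apart. NPC libraries were shallower than mESC libraries, and the bounds below take their depth into account.

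Against a floor of 3 counts over the 2 NPC libraries of a line, the summed cluster was at least 373-fold lower in NPC than in mESC in Q111 and at least 999-fold lower in WT, with the other 3 lines between. The bound for Mir293 was at least 230-fold to at least 652-fold over these 5 lines. For Mir292 it was 95.9-fold to 273-fold, and for Mir295 22.0-fold to 50.1-fold. For the weaker members the depth sets a low limit: at least 5.86-fold to 16.1-fold for Mir291a, 1.77-fold to 4.74-fold for Mir291b and 1.42-fold to 2.43-fold for Mir290a. Mir294, at 0 in the NPC of all 6 lines, was at least 1.06-fold to 2.45-fold lower. The order of these bounds is the order of the mESC counts and does not show that one member fell further than another.

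Over the 24 libraries, 904 genes were tested for NPC against mESC, the mean of 6 NPC groups minus the mean of 6 mESC groups. Of these, 253 (28.0%) were called lower in NPC and 275 (30.4%) higher, with a median log2 difference of -0.02. Of the 9 members, 5 had enough counts to be tested and all 5 were called lower. They passed the filter on low counts through mESC, so their number is no support in itself. The edgeR adjusted p was 5.13e-15 for Mir293, 1.20e-10 for Mir292, 3.34e-09 for Mir291a, 8.75e-09 for Mir295 and 1.43e-05 for Mir291b. Fitted log2 differences ran from -11.70 (Mir293) to -5.53 (Mir291b), and since most NPC groups are at 0 they depend on the small count edgeR adds and are no bound. Mir290a and Mir294 did not pass the filter, and Mir290b and Mir292b had no counts.

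**Figure D4:**
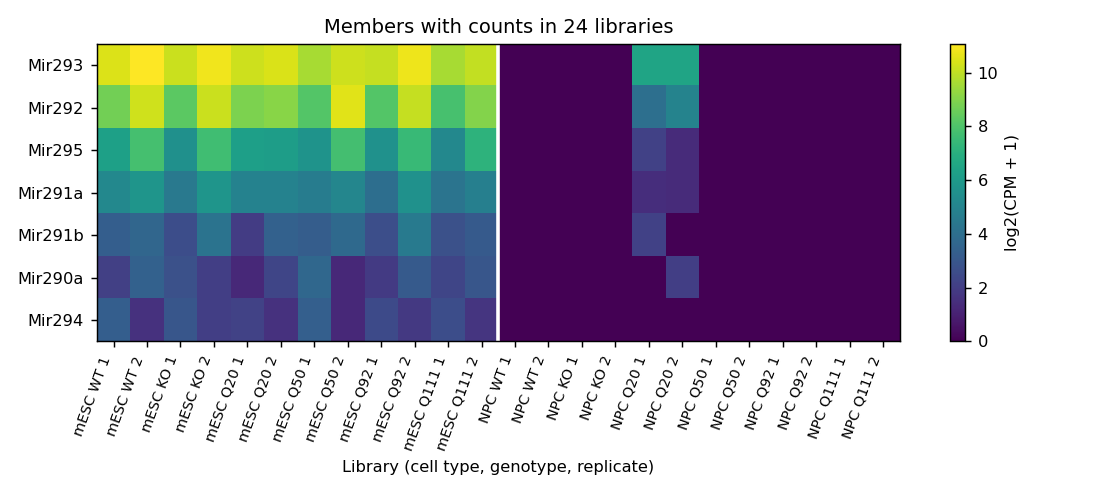
Colour gives log2(CPM + 1) for the 7 members with counts (rows) in all 24 libraries (columns), mESC left of the white line and NPC right of it. Mir293 and Mir292 are brightest across mESC, and in NPC only the 2 Q20 libraries are above 0, with 88.4 and 87.7 CPM of Mir293.

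Q20 was the exception among NPC. Its libraries held 65 and 79 counts of the cluster, 113 and 124 CPM, or 0.0135% and 0.0146% of all counts, where every other NPC library had 0. Mir293 gave 51 and 56 of these counts, Mir292 9 and 19, Mir295 2 and 1, Mir291a 1 and 1, Mir291b 2 and 0, Mir290a 0 and 2, and Mir294 none. Mir293 was the highest member and Mir292 the next in both libraries, as in 11 of the 12 mESC libraries. Mir293 held 78.5% and 70.9% of the cluster's counts there and Mir292 13.8% and 24.1%, within the mESC range for Mir292 in replicate 2, below it in replicate 1, and above the mESC range for Mir293 in replicate 1.

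Set against the floor of the other NPC lines, Mir293 was at least 23.1-fold higher in Q20 NPC than in Q50 NPC and at least 38.3-fold higher than in Q92 NPC, with WT, KO and Q111 between. Mir292 was at least 6.05-fold to 10.03-fold higher, and the summed cluster at least 31.1-fold to 51.6-fold. The other members had 0 to 3 counts in Q20 NPC, too few to tell from the lines at 0. In edgeR's test of Q20 NPC against WT NPC over 441 genes, 38 (8.62%) were called higher in Q20. Mir293 was the only member with enough counts to be tested, and it was called (adjusted p = 1.50e-05). It passed the filter on low counts through Q20 alone, so the call adds nothing to the counts just given.

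The change from mESC to NPC in Q20 was also compared with the same change in the other 5 lines, by a contrast of the 24-library fit. Of 904 genes, 23 (2.54%) differed upwards in Q20 and 3 downwards. Of the 5 members tested, 2 were called: Mir293 (edgeR adjusted p = 3.63e-07) and Mir292 (adjusted p = 0.00580). Mir291a (0.298), Mir291b (0.380) and Mir295 (0.380) did not pass. The presence of the cluster in Q20 NPC was known before these contrasts were chosen, so their p-values describe a difference already seen.

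The level in Q20 NPC was still far below that in Q20 mESC. The summed cluster stood at 6.20% of its Q20 mESC level by TMM-scaled CPM (95% exact interval 5.22 to 7.31, counting error only) and at 9.34% by library totals. Mir293 stood at 6.84% (5.59 to 8.30), Mir292 at 4.50% (2.98 to 6.53), Mir295 at 3.39% (0.694 to 10.1) and Mir291a at 5.71% (0.680 to 21.3). These 4 intervals overlap. Mir291b (25.2%, 2.85 to 105) and Mir290a (59.95%, 6.20 to 300.4) are too sparse to place, and Mir294, at 0, had an upper limit above its mESC level.

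The Mir302 and the X-linked Mir106a clusters, with related seeds and both known from pluripotent cells, were looked up beside it. Mir302b shares the seed AAGUGCU as printed above. Mir106a and Mir20b, of the other, have AAAGUGC, the same letters shifted by 1 base. Of the 17 hairpin genes of these and the Mir17 to Mir92-1 cluster, 11 had counts and 5 were tested for NPC against mESC, of which 4 were called lower (Mir302b, Mir106a, Mir20b and Mir19b-2), beside the 28.0% of all genes tested. Like the cluster's members, these passed the filter through their mESC counts. Mir106a and Mir20b had 0 counts in all 10 NPC libraries other than Q20, Mir302b had 1 and Mir19b-2 had 2. Mir367, also tested, was not called, but its SE of 6533 on the log2 scale means that the fit could not size its change. It had 114 counts over mESC, 35 and 33 of them in Q20, and 0 in those 10 NPC libraries.

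In Q20 NPC the related clusters were higher relative to their mESC level than Mir290 to Mir295. Mir302b had 123 and 138 counts in Q20 NPC against 1049 and 1122 in Q20 mESC, which is 28.8% by TMM-scaled CPM (25.3 to 32.8). The Mir302 and Mir367 hairpins together stood at 30.3% (26.8 to 34.3) and the Mir106a to Mir363 hairpins at 18.6% (13.1 to 25.8), neither interval overlapping the 5.22 to 7.31 of the Mir290 to Mir295 sum. The ratio of Mir302 and Mir367 counts to cluster counts does not depend on scaling: it was 2.09 and 1.95 in the Q20 NPC libraries and 0.450 and 0.380 in the Q20 mESC libraries. Q20 also stood apart within mESC, since the other 10 mESC libraries had ratios of 0.00064 to 0.128. For Mir302b the edgeR test of the Q20 difference gave an adjusted p of 0.0158.

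**Figure D5:**
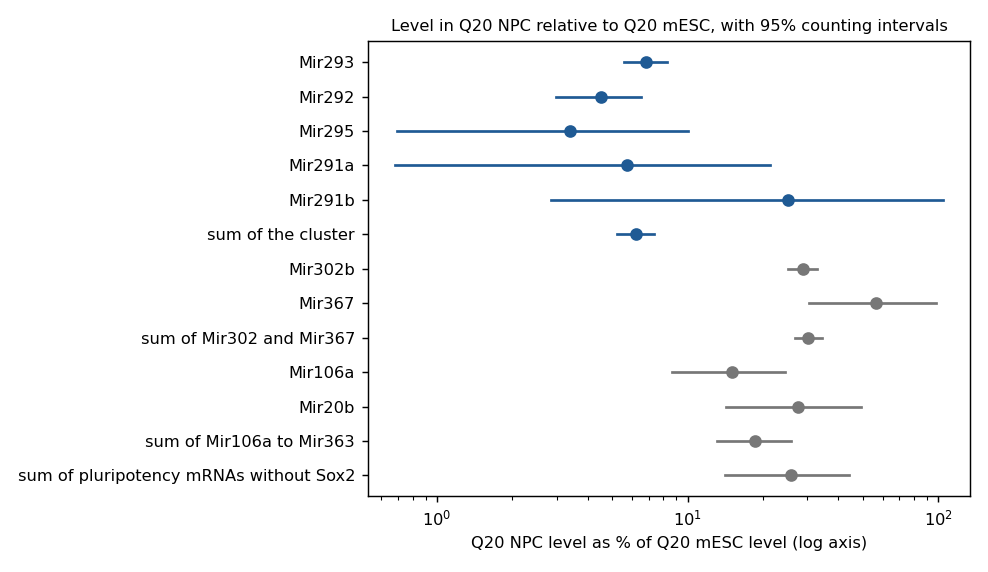
Points give the level in Q20 NPC as a percent of that in Q20 mESC (TMM-scaled CPM, log axis) with 95% counting intervals, in blue for members of the cluster and their sum and in grey for related clusters and pluripotency genes. The cluster's sum lies at 6.20%, left of the Mir302 and Mir367 sum at 30.3%. The sum of pluripotency genes without Sox2 mostly reflects Lin28a.

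Some pluripotency genes had counts in Q20 NPC and others did not. The 13 listed summed to 21.9 and 22.5 CPM in the Q20 NPC libraries, above the 4.57 to 14.1 of the other NPC and below the 40.9 to 98.3 of mESC. Of the 13, 9 were at 0 in Q20 NPC, Nanog and Zfp42 among them, and Klf4 and Esrrb, also at 0 there, had 2 counts each over the other NPC. Lin28a, an RNA-binding protein of stem cells that blocks let-7 maturation, had 5 and 6 counts in Q20 NPC, Pou5f1 1 and 1 and Utf1 2 and 0, and these 3 were at 0 in the other NPC. Sox2 stood at 9.82 CPM in Q20 NPC and 8.98 in the others, and it was the only gene of the list with enough counts to be tested for the Q20 difference, which was not called (edgeR adjusted p = 0.805). Without Sox2, which neural progenitors also express, the list stood at 25.9% of its Q20 mESC level (14.1 to 44.2). That rests on 8 and 7 counts in Q20 NPC, of which Lin28a gave 5 and 6, so it mostly reflects Lin28a. Neural markers summed to 194 and 229 CPM in Q20 NPC, below the 367.3 to 1125 of the other NPC and above the 10.1 to 20.1 of mESC. Mir181a-1 weighed most in the sum, with means of 50.4 CPM in Q20 NPC and 242 in the other NPC. Not every marker was lower in Q20 NPC: Hes5 had 13.2 and 4.58 CPM, Sox1 5.90 and 1.20, and Mir9-3 26.3 and 21.2, all on few counts. The part of these levels in the cluster's counts was not tested.

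The genes whose pattern over the 24 libraries was most like the summed cluster lay on other chromosomes. Likeness was the root mean square difference of log2(CPM + 1), each gene centred on its mean, over 483 genes with a mean of at least 10 CPM, and the median gene was at 5.18. The 5 nearest were the snoRNA genes Gm25856 (2.08), Gm25854 (2.24) and Gm22981 (2.51) and the microRNA Mir341 (2.63), all on chromosome 12, and Mir182 on chromosome 6 (2.55). They shared a high mESC level, a low level in the other NPC and some counts in Q20 NPC. Their Q20 NPC level differed. It was near the mESC mean for Mir341 (67.6 and 73.6 against 79.1 CPM) and far below it for Mir182 (1.73 and 3.13 against 60.1). The summed cluster had 113 and 124 CPM against a mESC mean of 2144. Mir182, of a microRNA cluster known from sensory and stem cells, had 60.1 ± 27.6 CPM in mESC (SD, n = 12), 0 counts in the other 10 NPC libraries and 1 and 2 counts in Q20 NPC. Gm25856 had 764 ± 399 CPM in mESC, 21 counts over the other NPC libraries and 143 and 159 in Q20 NPC. Because these libraries share cell type, depth and line, the likeness is a description.

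Genes around the locus had few counts. Of 9 genes annotated within 100 kb, 4 had counts and none had enough to be tested. AU018091, upstream on the minus strand, had 74 counts in mESC, 2 to 12 in each library, and 0 in all 12 NPC libraries, Q20 included. Nlrp12, whose exon lies opposite the hairpins, was at 0 throughout.

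Proteins that make microRNAs, and messengers known as targets of the cluster, were hardly covered by these small RNA libraries. Of 12 listed processing genes, 10 were in the table and 2 were tested: Ago1 and Ago2, the Argonaute proteins that carry microRNAs, with log2 differences between NPC and mESC of -0.69 ± 0.51 and 0.12 ± 0.32 (SE), neither called. Of 12 listed targets 1 could be tested, Cdkn1a, the cell cycle inhibitor p21. It had 0 to 3 counts in each mESC library, 3 to 17 in each NPC library other than Q20, and 2 and 3 in Q20 NPC. It was called higher in NPC (log2 2.97 ± 0.35, SE, edgeR adjusted p = 1.25e-07), as were 30.4% of all genes tested. Cdkn1a passed the filter on low counts through NPC, so the call is no support in itself. Its Q20 difference was not called (log2 -2.13, adjusted p = 0.386). Lats2, Rbl2 and Casp2 had 0 to 6 counts per library and were not tested. The other untested targets did not all go one way. Lefty1 had 49 counts over mESC, 1 over the NPC other than Q20 and 0 in Q20 NPC. Lefty2 had 42 over mESC and 0 over all NPC. Akt1 was higher in the NPC other than Q20, with means of 0.549 CPM in mESC and 4.11 there, and Ei24 had 3.54 and 4.59.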

How the data were processed

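Small RNA libraries of 24 samples were read as 50-base single reads. The authors deposited 1 table of whole-number counts per Ensembl gene, not normalized; per the submitters' processing notes, CASAVA 1.8, STAR, HTSeq and GRCm38.p6 were used. Trimming, strand and the handling of reads with several positions are not given in the sources used here. Columns named Q89 were taken as the samples titled Q92, since the growth protocol gives 89 repeats. Identifiers were matched to GENCODE M21 (55154 of 55335; the rest held 57 of 25027120 counts).

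Tests used edgeR 4.0.16 in R 4.3.3 (glmQLFit and glmQLFTest, TMM, filterByExpr at min.count 10 and min.total.count 15, Benjamini-Hochberg adjustment over all genes tested, threshold 0.05) and were tested on simulated data. Fits took group means over 24 libraries or over the 12 of a cell type. SE is the log2 difference over the square root of F. Intervals of log2 differences and slopes are that SE times a t quantile at the degrees of freedom of the fit, so they measure the spread between libraries. Intervals of percents are exact (Clopper-Pearson), and floors are 3 counts. The exact intervals and the floors cover counting error only. The members, lists and contrasts were chosen with earlier results of these data known. Named beside the members are the 5 genes nearest by likeness and, per list, up to 4 genes with at least 10 counts in a library. Other genes named (Col1a1, Col1a2, Col3a1, Col5a1, Mir143, Mir145a, Mir367, Pou5f1, Lin28a, Utf1, Klf4, Zfp42, Esrrb, Hes5, Sox1, Mir9-3, Lats2, Rbl2, Casp2, Lefty2, Akt1, Nlrp12) were chosen after their values were seen.

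Alternatives were DESeq2 1.42.0 size factors and its Wald test, library totals, no filter, microRNA genes alone, a replicate block, an additive model, fits of fewer libraries, 89 repeats for 92, and leaving out each library. The log2 differences between replicate 1 and replicate 2 were correlated between groups of a cell type. Across 1766 genes the correlation was 0.408 to 0.516 in 10 pairs of mESC groups without Q20 and 0.000144 to 0.0784 in the 5 pairs with Q20. Across 441 genes in NPC it ran from -0.0926 to 0.437 and was over 0.1 in 4 of 15 pairs. The highest NPC pair was WT with KO. So the number goes with a shared deviation in the 5 mESC lines other than Q20, whose blocked values are given beside the results, and was not treated as pairing for Q20 or in NPC.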

Additional observations from a re-analysis of the deposited data

Results flagged for a closer look

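The change from mESC to NPC differed between Q20 and the other 5 genotypes for 2 members of the cluster, by the contrast of that difference itself in edgeR's quasi-likelihood test: Mir293 (adjusted p = 3.63e-07) and Mir292 (adjusted p = 0.00580). Mir293 had 51 and 56 counts and Mir292 9 and 19 in the Q20 NPC libraries, and both had 0 in the other 10 NPC libraries. The difference was known when the contrast was chosen. Over the alternatives run, the adjusted p stayed at or under 6.15e-06 for Mir293 and 0.0291 for Mir292.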

How the results depend on the processing

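All 673 alternative values of 28 results were computed, and in every setting run the members tested for NPC against mESC stayed called lower. With microRNA genes fitted alone, 4 members passed for the Q20 difference in place of 2, Mir291a (adjusted p = 0.0268) and Mir295 (0.0174) being added, while 28.3% of the 53 genes of that fit were called higher in Q20 against 2.54% of 904. For Q20 NPC against WT NPC, 2 members were called in place of 1 without the filter on low counts, and 1 to 2 when a library was left out. The count was 2 without WT replicate 2 or without either library of KO, Q50, Q92 or Q111, where Mir292 was tested and called too. Without WT replicate 1 (adjusted p = 0.0537) and without Q20 replicate 1 (0.0600) it was tested and not called. The Wald test of DESeq2 gave no adjusted p for Mir293 in that comparison. The Mir293 slope in mESC changed sign to 0.032 with microRNA genes alone, where the cluster is a large part of the total used for scaling. It also changed sign, to 0.0049, without the Q20 libraries. The Q92 difference of Mir293 ranged from -0.68 to 0.0096 on the log2 scale when a library was left out. The highest value came without Q92 replicate 1. Neither the slope nor the Q92 difference passed the test in any setting, and the cause was not tested. With microRNA counts as the denominator, the cluster's share was 61.95% in mESC and 1.92% over all 12 NPC libraries. Library totals moved the median of all genes for NPC against mESC to 0.32, with 350 genes higher and 159 lower.

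With the replicate number as a block, 5 members were called for NPC against mESC, 2 for the Q20 difference, 1 for Q20 NPC against WT NPC and 0 in each mESC comparison, as without it. The block, with or without Q20, moved calls over all genes: 24 genes higher and 1 lower for mESC Q20 against WT. A block fit without the Q20 libraries was chosen after seeing the data. In it, Mir293 in Q111 stood at -1.10 (edgeR adjusted p = 0.225), and its slope at 0.0049. Depth limits the weaker members: a count of 0 in an NPC library still allows a level of up to 4.49 to 8.44 CPM, the value of 3 counts. That is near the mESC level of Mir290a and Mir294.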
